A study of Mus musculus with 6 samples.

Results

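The genes described here are 7 genes used in the field as markers of the joint surface and the tissue next to it: *Prg4*, *Cilp*, *Dpt*, *Creb5*, *Erg*, *Osr1* and *Osr2*. They were found by symbol among the 32286 features of the count tables, and all 7 were present once. Digits in a dish (DID) cultures are dense cultures of mesenchyme from the distal forelimb bud of E11.5 embryos of the outbred CD-1 mouse strain, with no genetic change. The cells were pooled from many limb buds and given no growth factor other than those of the serum in the medium. Single-cell RNA-seq with 10x Genomics 3′ chemistry was done after 2, 7 and 10 days in culture (Day 2, Day 7 and Day 10), each time on 2 independent cultures called A and B. The labels of the 3 groups differ only in days in culture. They name no pool, capture run or sequencing run, so day cannot be told apart from these. The study's upper limit on mitochondrial reads also differed, at 25% for Day 2, 30% for Day 7 and 40% for Day 10. Since the starting cells were pools, the spread between A and B is that of cultures and not of single embryos.

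A synovial joint starts as an interzone, a band of flattened cells across a cartilage rod that makes growth and differentiation factor 5 (*Gdf5*) and switches off the cartilage program. Cells of this band and cells that join it later give rise to articular cartilage, ligament, meniscus and the synovial lining. *Prg4* encodes lubricin, the secreted glycoprotein that lets joint surfaces slide, and is made by the outermost cells of articular cartilage and by the synovial lining. *Creb5*, *Erg*, *Osr1* and *Osr2* encode transcription factors of the joint region, while *Cilp* and *Dpt* encode matrix proteins of cartilage and of fibrous tissue.

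After the limits of the study on each library, 9448 to 16486 cells per library remained, with 178022112 to 260245417 unique molecular identifiers (UMIs, each 1 captured transcript) in all. The median UMIs per cell were 18587 in culture A and 3871 in culture B of Day 2. They were 8062 and 9337 for Day 7, then 24197 and 22128 for Day 10. Depth per cell therefore differed between days and between the Day 2 cultures, and shares of cells are given after each cell was thinned to 3000 UMIs, with 646 to 6833 shallower cells per library left out. Any pair of libraries shared 24 to 67 cell barcodes, at most 0.543% of the smaller library. No doublet was removed. The summed level of the 10 cartilage genes in CPM (UMIs scaled to library size) was 1672 and 1847 in the cultures of Day 2. It was 15887 and 14638 in those of Day 7, and 10022 and 9164 in those of Day 10. Cells with UMIs of at least 3 of 8 endothelial markers numbered 0 in every library.

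In mouse genome build GRCm38 the genes lie on 6 chromosomes. *Prg4* occupies chr1:150449412-150466165 on the minus strand and *Dpt* chr1:164796644-164824266 on the plus strand. *Creb5* spans chr6:53287270-53700376 on the plus strand and *Erg* chr16:95359169-95586593 on the minus strand. *Cilp* lies at chr9:65265180-65280605, *Osr1* at chr12:9570116-9581500 and *Osr2* at chr15:35296098-35303305, all on the plus strand. *Prg4* shares 204 exon bases with *Tpr* on the opposite strand, and *Creb5* shares 164 with the small RNA gene *Gm25818*, which has no row in the count tables.

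*Creb5* is a member of the CREB/ATF family, whose proteins bind the palindrome TGACGTCA, so the sequences upstream of its start sites are shown, with those of *Dpt*, the gene whose level changed most between Day 2 and Day 7. The table of RefSeq start sites used here, for GRCm38.p6, held 4 of the 7 genes (*Creb5*, *Erg*, *Cilp* and *Dpt*). *Prg4*, *Osr1* and *Osr2* had no entry in this table, which does not mean that RefSeq lacks them. Each window was the 250 bases before a start site, ended where the annotation places an exon. Capitals mark a match to TGACGTCA, and lower case is all other sequence, 5′ to 3′ on the strand of the gene. The windows are chr6:53287053-53287269 and chr6:53573124-53573299 for *Creb5* and chr1:164796413-164796643 for *Dpt*.
Creb5, upstream start: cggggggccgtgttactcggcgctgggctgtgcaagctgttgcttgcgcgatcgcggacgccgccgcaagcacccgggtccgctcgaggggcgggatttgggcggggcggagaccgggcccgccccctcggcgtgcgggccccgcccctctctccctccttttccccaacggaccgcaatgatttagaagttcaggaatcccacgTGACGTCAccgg
Creb5, downstream start: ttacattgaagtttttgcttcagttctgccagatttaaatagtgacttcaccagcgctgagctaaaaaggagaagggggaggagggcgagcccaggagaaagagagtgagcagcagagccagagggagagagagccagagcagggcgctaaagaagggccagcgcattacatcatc
Dpt: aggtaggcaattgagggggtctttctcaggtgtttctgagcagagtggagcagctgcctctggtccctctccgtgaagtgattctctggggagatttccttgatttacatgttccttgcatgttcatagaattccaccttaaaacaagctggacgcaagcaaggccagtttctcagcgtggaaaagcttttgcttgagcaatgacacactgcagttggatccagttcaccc
The 8-base palindrome stood once in the upstream window of *Creb5*, beginning 45 bases before the start site, and in none of the other 6 windows of these genes. It occurs on either strand in 1.55% of 32851 mouse windows of 250 bases. The related 7-base element TGANTCA, in which N is any base, was in none of the 7 windows and in 6.75% of all. These are letters in a window, and binding was not measured.

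Levels were first compared between days in whole cultures, as UMIs summed over all cells of a library and scaled to CPM with TMM factors. In such sums fewer cells of a type and less RNA per cell cannot be told apart. The test was edgeR's quasi-likelihood test over 18987 genes with Benjamini-Hochberg adjustment. Between Day 2 and Day 7, 2 of the 7 genes rose and 3 fell, in a comparison in which 70.3% of all tested genes were called. From Day 7 to Day 10, 1 rose and 4 fell, with 52.2% of all genes called. From Day 2 to Day 10, 2 were higher and 5 lower, with 77.3% of all genes called. The number of calls is thus near that of the whole transcriptome, and the results below are the sizes and the order of the changes.

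**Figure D1:**
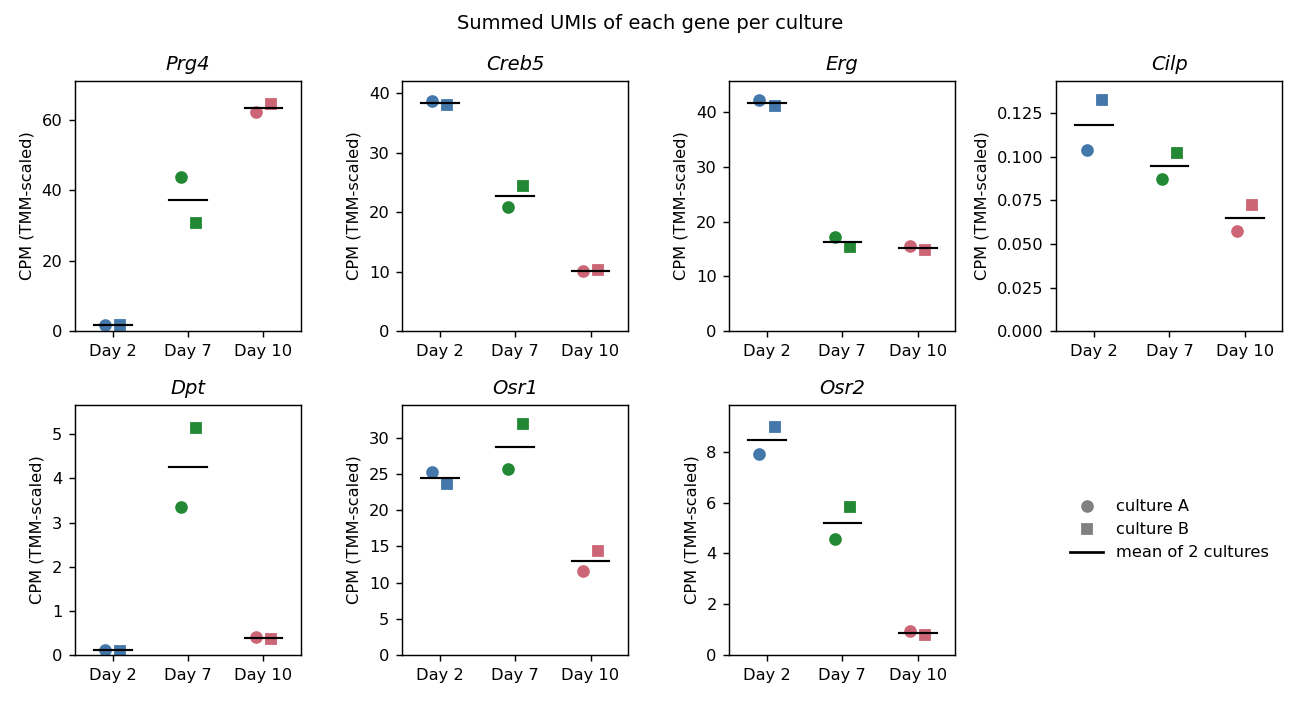
Level of each gene per culture in CPM (vertical axis, linear from 0, own scale in each panel) at Day 2, Day 7 and Day 10, with culture A as circles, culture B as squares and the mean of the 2 cultures as a line. *Prg4* climbs through all 3 days, *Dpt* is high at Day 7 only, and *Creb5* and *Osr2* step down at each day.

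The lubricin gene *Prg4* was the only one of the 7 genes that rose at both steps. It stood at 1.85 and 1.90 CPM in the Day 2 cultures, at 43.8 and 30.6 CPM at Day 7 and at 62.2 and 64.5 CPM at Day 10. The days do not overlap, although the Day 7 cultures differ from each other more than those of the other days. The rise was 19.9-fold from Day 2 to Day 7 (log2 difference 4.31 ± 0.16 SE, adjusted p = 7.78e-08) and a further 1.70-fold to Day 10 (0.77 ± 0.13, adjusted p = 0.00177).

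*Dpt* encodes dermatopontin, a small protein that binds decorin and collagen in fibrous matrix. Its level was 0.12 and 0.09 CPM at Day 2 (27 and 19 UMIs in all), 3.35 and 5.15 CPM at Day 7, and 0.40 and 0.35 CPM at Day 10. It was thus high at 1 of the 3 days, 39.98-fold above Day 2 (log2 difference 5.32 ± 0.27, adjusted p = 3.41e-07) and 11.2-fold above Day 10 (adjusted p = 1.76e-05). *Prg4* and *Dpt* rose together to Day 7 and moved in opposite directions after it.

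*Cilp*, which encodes a matrix protein of the middle layer of adult articular cartilage, was close to the limit of detection throughout. It gave 24 and 27 UMIs at Day 2, 17 and 19 at Day 7 and, by Day 10, 14 and 16, which is 0.06 to 0.13 CPM. The log2 difference of Day 10 from Day 2 was -0.87 ± 0.33 (adjusted p = 0.037), and the call was lost with DESeq2, with no filter on low counts, with all deposited barcodes and when 5 of the 6 libraries were left out in turn (without Day 2 replicate B the difference was -0.69, adjusted p = 0.16). Its paralogue *Cilp2* was measured at 0.97 and 0.79 CPM at Day 2 and at 13.99 and 11.6 CPM at Day 10, and rose at both steps (adjusted p = 1.55e-07 and 0.000139).

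Among the transcription factors, *Creb5*, a factor known to be needed for lubricin expression in articular chondrocytes, fell at both steps. The level was 38.6 and 38.0 CPM at Day 2, 20.9 and 24.5 at Day 7 and, by Day 10, 10.1 and 10.3. The cultures of 1 day lay within a narrow band and no 2 days overlapped. The decrease was 1.69-fold (adjusted p = 1.74e-05) and then 2.23-fold (adjusted p = 1.74e-05), so *Creb5* and *Prg4* changed in opposite directions in the whole cultures.

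*Erg*, an ETS-family factor of developing articular cartilage and also of endothelial cells, fell by Day 7. It was at 42.2 and 41.2 CPM at Day 2, 17.2 and 15.4 at Day 7 and, by Day 10, 15.6 and 14.8. The step to Day 7 was 2.56-fold down (adjusted p = 2.21e-07). The Day 7 and Day 10 cultures overlap, and their log2 difference was -0.10 ± 0.06 (adjusted p = 0.207), but with cells thinned to 3000 UMIs before summing it was called, at -0.32 (adjusted p = 0.0104). Its relative *Fli1* took a similar course, from 34.4 and 37.7 CPM at Day 2 to 11.2 and 11.1 at Day 7, and was still lower at Day 10 (8.13 and 7.57 CPM, adjusted p = 0.000382 against Day 7).

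The odd-skipped factors *Osr1* and *Osr2*, which are partly redundant in joint formation in the mouse, were lowest at Day 10. *Osr1* was at 25.2 and 23.7 CPM at Day 2 and 25.7 and 31.9 at Day 7, a difference of 0.24 ± 0.12 on the log2 scale (adjusted p = 0.0972), and at 11.6 and 14.3 at Day 10, 2.22-fold below Day 7 (adjusted p = 0.000128). The first of these differences depends on the processing. With library totals alone it was -0.05, and with cells thinned to 3000 UMIs before summing it was called, at 0.56 (adjusted p = 0.00549). It was also called without Day 7 replicate A (0.40, adjusted p = 0.0138), and without replicate B it was 0.08 (adjusted p = 0.575). *Osr2* was at 7.93 and 8.98 CPM at Day 2, 4.56 and 5.84 at Day 7 and, by Day 10, 0.94 and 0.77. It fell 1.63-fold and then 6.06-fold (adjusted p = 0.00108 and 1.14e-05), and the first of these calls was lost when cells were thinned to 3000 UMIs before summing (log2 difference -0.25, adjusted p = 0.181).

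Other genes of the joint were followed with lists of their own, and the 10 interzone genes moved in both directions. From Day 2 to Day 7, 5 rose and 4 fell, and from Day 7 to Day 10, 2 rose and 6 fell, where 70.3% and 52.2% of all genes were called in either direction at these steps. *Gdf5* itself went from 20.2 and 17.5 CPM to 9.22 and 11.7 and then to 2.31 and 2.53, while *Gdf6*, a second ligand of this family, peaked at Day 7 with 1.58 and 2.68 CPM against 0.16 and 0.16 at Day 10. *Enpp2*, which makes lysophosphatidic acid, rose from 2.89 and 3.01 CPM to 29.1 and 28.0 (adjusted p = 2.71e-09). Of 8 genes of the surface zone and of lubrication, 7 rose and 1 fell by Day 7, with a median log2 difference of 0.83 against 0.01 over all genes, and 4 rose and 3 fell after it. *Thbs4*, a thrombospondin, moved in the same direction as *Prg4* at both steps, from 0.92 and 0.80 CPM to 11.6 and 8.94 and then 22.2 and 17.6. Of 9 genes described as regulators of *Prg4* in other systems, 4 rose and 1 fell by Day 7, and 0 rose and 3 fell after it.

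After thinning, 0.409% and 0.508% of cells had a *Prg4* UMI at Day 2, 3.07% and 2.27% at Day 7 and, by Day 10, 5.04% and 4.58%, with exact 95% intervals of 4.61 to 5.50% and 4.16 to 5.04% for the last. Without thinning the Day 10 shares were 11.7% and 9.95%. A positive cell held 2.85 and 2.37 *Prg4* UMIs on average at Day 2, 10.8 in both cultures at Day 7 and 12.5 and 14.5 at Day 10, all before thinning, and the highest single cell held 517. After thinning, the mean over the cultures was 2.61 *Prg4* UMIs per positive cell at Day 7, where the means of the other 6 genes were 1.0 to 1.52, and 3.0 at Day 10, where the highest of the others was 1.83 (*Dpt*). The intervals cover counting error only.

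**Figure D2:**
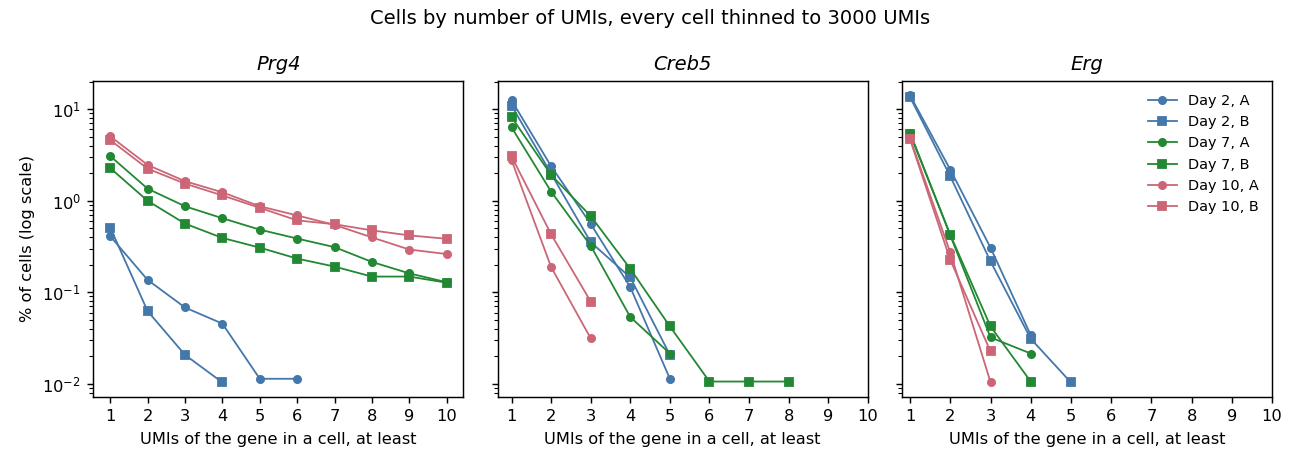
Percentage of cells (vertical axis, log scale) with at least the number of UMIs on the horizontal axis, for *Prg4*, *Creb5* and *Erg*, after every cell was thinned to 3000 UMIs, with each line 1 culture, colored by day. The *Prg4* lines of Day 7 and Day 10 run on to 10 UMIs per cell, while the *Erg* lines end by 5 and the *Creb5* lines by 8.

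Free RNA gives UMIs in cells that do not make a transcript, so the shares were set beside those of cells with UMIs of at least 3 of 6 immune markers at Day 10. Before thinning, the medians of the cells used were 20923 and 22056 UMIs in these immune cells and 26187 and 24819 in all cells. Of the immune cells, 0 of 135 and 6 of 177 had a *Prg4* UMI after thinning, against 5.04% and 4.58% of all cells, and 0 of 135 (3 counts, the limit set for a count of 0, would be a share of 2.22%) and 3 of 177 had 3 or more. The interval of the second culture, 1.25 to 7.23%, includes the share of all cells. Of all cells, 1.63% and 1.53% had 3 or more *Prg4* UMIs at Day 10, so in culture B neither 1 UMI nor 3 UMIs of *Prg4* separated these immune cells from the rest. The share with 3 or more was 0.868% and 0.561% for Day 7, and 0.0682% and 0.0207% for Day 2. At Day 2 the cells with muscle markers were used in the same way, with 1 of 332 and 0 of 326 (a limit of 0.920%) positive for *Prg4*. Of all Day 2 cells 0.409% and 0.508% were positive, so these counts are too small to tell the muscle cells from the rest.

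*Creb5*, *Erg* and *Osr1* were found in more cells than *Prg4* at Day 2 and Day 7, with few UMIs in each. *Erg* UMIs were found in 14.1% and 13.5% of thinned cells at Day 2, 5.54% and 5.35% at Day 7 and, by Day 10, 4.79% and 4.66%. Among cells with muscle markers at Day 2 the shares of *Erg* were 1.81% and 5.21%, and among those with immune markers at Day 10 they were 0 of 135, for which the same limit of 3 counts is 2.22%, and 0.565% of 177, below the shares of all cells. Without thinning the *Erg* share went from 17.3% and 16.7% at Day 7 to 24.9% and 22.1% at Day 10, against the thinned share and the CPM, so no order was read from it. *Creb5* was found in 12.4% and 10.9%, then 6.31% and 8.16%, then 2.76% and 3.04% of thinned cells. *Osr1* was found in 8.13% and 7.18%, 6.30% and 8.78%, and 2.75% and 3.10%, and *Osr2* in 3.18% and 3.15%, 1.62% and 2.32%, and 0.324% and 0.271%. No UMI of any of the 7 genes was found in 67.9% and 69.5% of thinned Day 2 cells, 80.7% and 78.2% of Day 7 cells and 85.4% and 85.3% of Day 10 cells.

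*Creb5* was also found in immune cells. At Day 10, 10.4% and 4.52% of thinned cells with immune markers had a *Creb5* UMI against 2.76% and 3.04% of all cells (intervals 5.79 to 16.8% and 1.97 to 8.71%, the second including the share of all cells), while their *Osr1* shares were 1.48% and 0.565%. Before thinning the *Creb5* shares were 44.4% and 37.4% of 142 and 198 such cells against 13.3% and 13.7%. Immune cells were a small part of the cultures, and the summed level of the 6 immune markers was 11.4 to 36.0 CPM up to Day 7 and 96.9 and 122.5 CPM at Day 10.

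Coexpression was read as the number of cells with UMIs of both genes, divided by the number expected if the genes were spread independently over the cells of that library. No share in cells with muscle or immune markers was set beside the Day 7 values, or beside *Osr2* and *Dpt* at any day. Of the 21 pairs, 9 had at least 5 expected cells in both Day 7 cultures, and 7 of the 9 were above 1 in both. *Osr1* with *Osr2* gave ratios of 6.62 and 4.78 (63 and 92 cells), *Creb5* with *Osr2* 5.24 and 3.92 (50 and 70 cells), and *Creb5* with *Osr1* 4.07 and 4.02 (151 and 272 cells). *Dpt* joined the same cells, with 33 and 75 cells positive for *Dpt* and *Osr1* where 4.85 and 13.3 were expected and 21 and 49 positive for *Dpt* and *Creb5* where 4.86 and 12.4 were expected. Put as shares, 42.9% and 49.3% of *Dpt*-positive cells had an *Osr1* UMI, against 5.999% and 8.12% of *Dpt*-negative cells. The same factor pairs were weaker at Day 2, with ratios of 1.56 to 2.04, and *Creb5* with *Osr1* stood at 2.62 and 2.28 at Day 10 (19 cells in each culture).

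*Prg4* did not share the high ratios of this group at Day 7, and with *Creb5* the cultures lay on either side of 1. At Day 7, *Prg4* with *Osr1* gave 0.721 and 0.904 (13 and 17 cells), *Prg4* with *Creb5* 0.886 and 1.37 (16 and 24 cells), and *Prg4* with *Dpt* 0 and 2 cells where 2.36 and 3.45 were expected. Only with *Erg* was the Day 7 ratio of *Prg4* above 1 in both cultures, at 1.51 and 2.01 (24 and 23 cells). At Day 10 it was 1.69 in culture A and 1.004 in culture B, so the cultures differ. Of the 6 pairs with at least 5 expected cells in both Day 10 cultures, 5 were above 1 in both and 1 was below 1 in both. The 5 include *Prg4* with *Erg*, which was barely above 1 in culture B. Cells with UMIs of 4 of the 7 genes numbered 11 and 15 in the Day 7 cultures, 0 at Day 2 and 1 at Day 10.

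**Figure D3:**
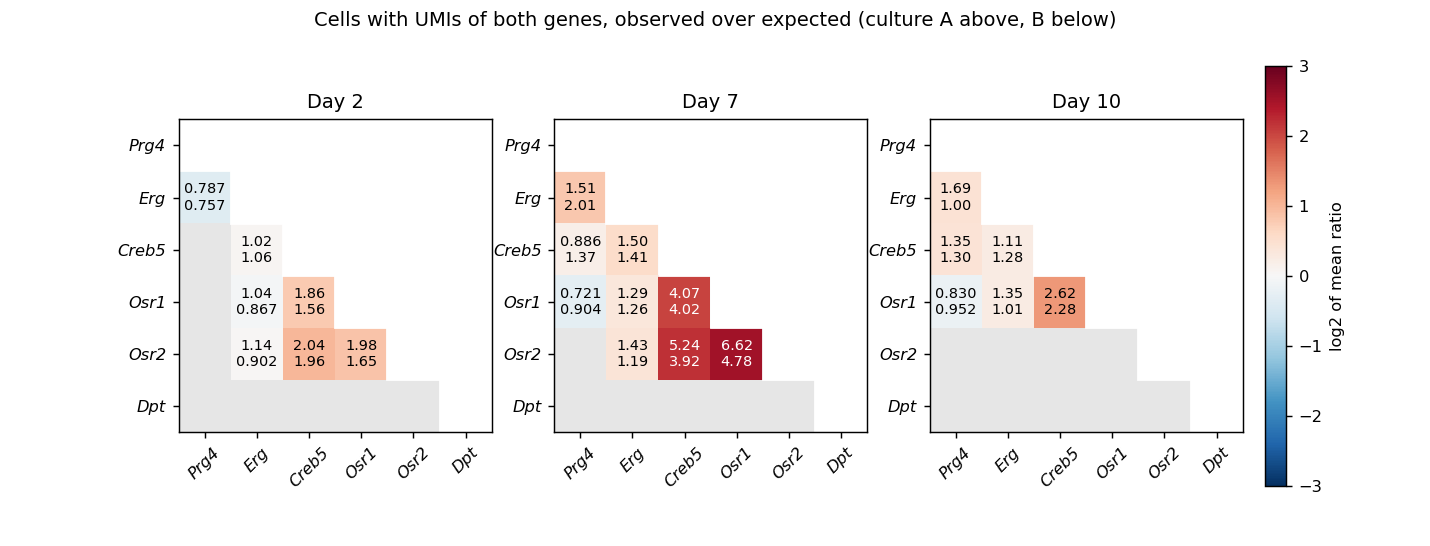
Ratio of observed to expected cells with UMIs of both genes at Day 2, Day 7 and Day 10, with culture A above and culture B below in each square and the color giving the log2 of their mean. Grey squares had fewer than 5 expected cells in a culture, the darkest squares are the *Creb5*, *Osr1* and *Osr2* pairs at Day 7, and the *Prg4* column lies between 0.721 and 2.01.

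These pairings were then tested across libraries. In each library, cells with at least 1 UMI of a gene after thinning were summed, the other cells were summed separately, and edgeR's quasi-likelihood test compared the sums with library as a covariate and a term for each day. The splitting gene itself was left out of its own fit. CPM of positive and negative cells are UMIs over the plain total of each sum, while the log2 differences use TMM factors. A log2 difference can therefore depart from the ratio of the CPM printed beside it. Library totals alone were tried as the scale in the *Prg4* split only. *Cilp* had too few cells for a fit and *Dpt* had enough at Day 7 only, which left 6 fits. With 2 cultures a day, the spread in these fits was borrowed almost wholly from other genes, and small p-values reflect that. For a pair of genes the 2 fits use the same cells and are not independent. The UMIs of 1 cell enter the sums as separate counts, and at Day 7 the top 1% of cells held 71.5% and 77.5% of *Prg4* UMIs. Spread borrowed from other genes does not allow for this clumping, so p-values for *Prg4* in the splits can be too small.

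*Osr1*-positive cells of Day 7 had higher levels of 3 of the other genes, where 12.3% of 14972 genes were called higher and 14.4% lower. *Prg4* was called lower, on UMIs from the few cells with both genes counted above. *Creb5* was at 117 and 161 CPM in positive cells against 20.5 and 24.7 in negative cells of cultures A and B, a log2 difference of 2.47 ± 0.09 (adjusted p = 3.46e-154). *Osr2* was at 47.1 and 53.1 CPM against 4.23 and 5.73 (3.17 ± 0.17) and *Dpt* at 24.96 and 41.8 against 2.25 and 3.79 (3.31 ± 0.23), with adjusted p = 9.7e-77 and 9.57e-44. For each of the 3 the positive cells of both cultures lay above the negative cells of both. *Prg4* was at 22.1 and 12.5 CPM in *Osr1*-positive cells against 28.5 and 19.2, a difference of -0.64 ± 0.17 (adjusted p = 0.00155), which was lost without Day 7 replicate B (-0.54, adjusted p = 0.119).

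*Creb5*-positive cells of Day 7 showed the same genes, with 4 of the 5 tested called higher where 9.53% of all genes were. *Osr1* was at 155 and 202 CPM in them against 23.2 and 31.3 in negative cells, a log2 difference of 2.58 ± 0.09 (adjusted p = 1.04e-146). *Osr2* was at 39.1 and 40.7 CPM against 4.77 and 7.15 (2.60 ± 0.18, adjusted p = 4.75e-41), and *Dpt* at 17.6 and 28.2 against 2.75 and 5.27 (2.38 ± 0.27, adjusted p = 6.8e-17). In each case both cultures moved alike, without overlap. *Erg* was modestly higher, at 30.6 and 29.0 CPM against 19.3 and 18.6 (0.52 ± 0.15, adjusted p = 0.00568), a call lost without Day 7 replicate A (0.51, adjusted p = 0.0784) or B (0.51, adjusted p = 0.158). *Prg4*, at 18.7 and 21.7 CPM in *Creb5*-positive cells against 28.8 and 18.4, went in opposite directions in the cultures (-0.31 ± 0.17, adjusted p = 0.213). Without Day 7 replicate B it was called lower (-0.78, adjusted p = 0.0187), without replicate A it was 0.11 (adjusted p = 0.848), and at 6000 UMIs it was 0.08 (adjusted p = 0.67).

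The *Osr2* and *Dpt* splits of Day 7 gave the same grouping. Of 9 genes that tissue dissociation is known to induce, 7 or 8 were also called higher in each of the *Creb5*, *Osr1*, *Osr2* and *Dpt* splits of Day 7, and their part in the grouping was not tested. In *Osr2*-positive cells 3 genes were called higher and 1 lower, with 4.76% and 6.40% of all genes called in those directions, and *Osr1* reached 236 and 254 CPM against 28.1 and 40.2 (2.67 ± 0.13, adjusted p = 3.33e-88). In the 77 and 152 *Dpt*-positive cells, again 3 were higher and 1 lower, with 4.14% and 5.83% of all genes called, and *Osr1* stood at 225 and 298 CPM against 29.9 and 41.1 (2.71 ± 0.15, adjusted p = 4.3e-65). *Prg4* was the gene called lower in both splits, with 2 and 3 UMIs in the *Osr2*-positive cells (-2.50 ± 0.51, adjusted p = 2.08e-05) and 0 and 3 UMIs in the *Dpt*-positive cells (-2.51 ± 0.63, adjusted p = 0.00149). These are small counts, and several *Prg4* UMIs can come from 1 cell.

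*Erg* and *Prg4* were each called higher in cells positive for the other at Day 7. This did not set *Erg* apart from *Creb5*, *Osr1* and *Osr2*, as its pairs with these also had ratios above 1 in both cultures. In *Erg*-positive cells 2 of 5 tested genes were called higher, against 4.30% of all genes. *Prg4* was at 42.6 and 44.2 CPM in them against 27.3 and 17.2 in negative cells (log2 difference 0.88 ± 0.17, adjusted p = 5.84e-05), and the call was lost without Day 7 replicate B (0.54, adjusted p = 0.102). *Creb5* was at 40.6 and 52.8 CPM against 25.7 and 35.7 (0.52 ± 0.13, adjusted p = 0.00347), a difference that was of similar size but was not called without Day 7 replicate A (0.48, adjusted p = 0.117) or B (0.55, adjusted p = 0.0987). Among called genes higher in each library and at 20 CPM or more in *Erg*-positive cells, *Gdf5* had the largest difference (1.18 ± 0.16, adjusted p = 6.45e-09). At 6000 UMIs *Osr1* was also called higher in *Erg*-positive cells (0.35, adjusted p = 0.00742), while *Osr2* (0.26) and *Dpt* (-0.29) were not called. In *Prg4*-positive cells *Erg* was the only member called, at 33.8 and 39.0 CPM against 19.6 and 19.0 (0.79 ± 0.23, adjusted p = 0.00798), with 4.66% of all genes called higher, and that call was lost under several alternatives, among them leaving out either Day 7 culture. At 6000 UMIs *Osr1* (-0.76, adjusted p = 9.2e-06) and *Dpt* (-1.72, adjusted p = 0.0125) were called lower in *Prg4*-positive cells. Without thinning *Osr1*, *Dpt* and *Osr2* were (-0.81, -0.75 and -0.94), and with 2 or more *Prg4* UMIs as positive *Osr1* (-1.07) and *Osr2* were.

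**Figure D4:**
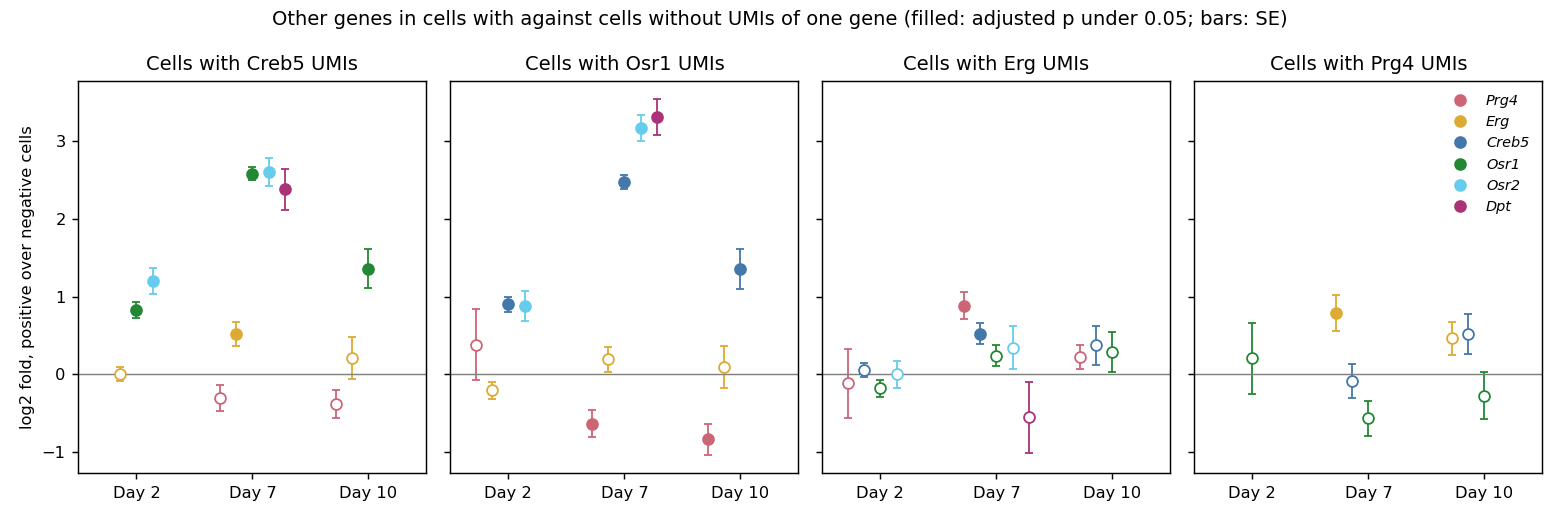
Log2 difference of each other gene between cells with and cells without UMIs of *Creb5*, *Osr1*, *Erg* or *Prg4* (vertical axis) at Day 2, Day 7 and Day 10. Bars are SE, filled points have an adjusted p under 0.05, and points with fewer than 10 UMIs in the positive cells are left out. *Osr1*, *Osr2* and *Dpt* lie above 2 in *Creb5*-positive cells of Day 7, and *Prg4* lies below 0 in *Osr1*-positive cells of Day 7 and Day 10.

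At Day 2 *Osr1* and *Osr2* were higher in *Creb5*-positive cells, by less than at Day 7. Of the 9 dissociation genes, 5 were also called higher in *Creb5*-, 4 in *Osr1*- and 5 in *Osr2*-positive cells of Day 2, and their part was not tested. In *Creb5*-positive cells *Osr1* was at 60.9 and 46.2 CPM against 29.97 and 25.5 (0.83 ± 0.10, adjusted p = 2.29e-13) and *Osr2* at 26.5 and 23.7 against 9.99 and 10.1 (1.202 ± 0.17, adjusted p = 9.25e-11), where 2.87% of all genes were called higher. *Erg* was at 58.2 and 57.9 CPM against 55.1 and 51.2, which did not pass (0.01 ± 0.09, adjusted p = 0.982). At Day 10 *Osr1* remained higher in *Creb5*-positive cells, with 32.8 and 26.0 CPM against 9.89 and 11.3 (1.36 ± 0.25, adjusted p = 4.28e-06, 3.21% of all genes called higher), and without Day 10 replicate A the adjusted p was 0.0517. In *Osr1*-positive and in *Osr2*-positive cells of Day 2, 2 genes each were called higher (1.36% and 0.921% of all genes), and in *Osr1*-positive cells of Day 10 it was 2 (1.56%). The Day 2 calls between *Osr1* and *Osr2* were lost without Day 2 replicate A, for *Osr2* in *Osr1*-positive cells (0.67, adjusted p = 0.427) and for *Osr1* in *Osr2*-positive cells (0.67, adjusted p = 0.638). Of the 2 genes at Day 10, *Dpt* was lost without Day 10 replicate A (2.97, adjusted p = 0.129) or B (3.30, adjusted p = 0.122). In *Erg*-positive cells 0 genes were called higher at Day 2 or Day 10, where 3.41% and 2.17% of all genes were, although at 6000 UMIs *Osr2* was called higher at Day 2 (0.34, adjusted p = 0.0138) and *Prg4* at Day 10 (0.72, adjusted p = 1.11e-08). In *Prg4*-positive cells of Day 2 and *Osr2*-positive cells of Day 10, 0 were called higher (0.129% and 0.101%). At 6000 UMIs *Dpt* was called higher in *Osr2*-positive (4.38, adjusted p = 0.00261) and *Creb5*-positive cells of Day 10 (2.30, adjusted p = 0.00303).

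Whether these differences themselves changed between days was tested in the same fits, and the members that passed are given with the results for a closer look. A pair that passed in both of its fits is counted in both below. From Day 2 to Day 7, 1 member passed in *Prg4*-positive cells (3.76% of all genes), 3 in *Creb5*-positive (8.51%), 2 in *Osr1*-positive (11.7%) and 3 in *Osr2*-positive cells (3.76%), and 0 in *Erg*-positive cells (4.51%). From Day 7 to Day 10, 1 member passed in *Creb5*-positive cells (6.81%) and 1 in *Osr1*-positive cells (5.63%), and 0 in *Prg4*- (0.889%), *Erg*- (0.928%) and *Osr2*-positive cells (1.0%).

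*Prg4* was again called lower in *Osr1*-positive cells at Day 10, on clumped UMIs. *Prg4* was at 22.8 and 34.0 CPM in *Osr1*-positive cells against 48.3 and 48.8 in the others (-0.84 ± 0.20, adjusted p = 0.0017, with 2.35% of all genes called lower), and without Day 10 replicate A the difference was -0.59 (adjusted p = 0.323). The 31 and 24 *Osr2*-positive cells of Day 10 held 0 *Prg4* UMIs. For *Prg4* in *Erg*-positive cells the Day 10 cultures went opposite ways, with 81.5 against 45.9 CPM in A and 29.9 against 49.2 in B (0.22 ± 0.15, adjusted p = 0.54). Of the 5 tested genes 0 were called in *Prg4*-positive cells of Day 10, where 3.73% of all genes were called higher and edgeR's largest positive differences were those of *Creb5* (0.52 ± 0.26, adjusted p = 0.238) and *Erg* (0.46 ± 0.21, adjusted p = 0.185). With cells thinned to 6000 UMIs both were called (0.58, adjusted p = 0.01, and 0.66, adjusted p = 4.96e-05), and *Osr1* was called lower (-0.65, adjusted p = 0.0117, against -0.28 ± 0.30 and adjusted p = 0.712 at 3000 UMIs).

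Genes of the lists were counted within these same splits, so the counts describe the split cells and do not find them anew. Of the 10 interzone genes, 6 were higher and 1 lower in *Osr1*-positive cells of Day 7, where 12.3% and 14.4% of all genes were called. In *Creb5*-positive cells of Day 7, 6 were higher and 0 lower, where the shares of all genes were 9.53% and 10.4%. Cells with muscle, immune, endothelial or erythroid markers were then left out. The counts higher and lower became 6 and 1 in *Creb5*-positive cells, and were 4 and 2 in *Osr2*- and 4 and 1 in *Dpt*-positive cells. *Gdf5* stood at 84.5 and 137 CPM in *Osr1*-positive cells against 9.50 and 10.8 (3.30 ± 0.11, adjusted p = 7.87e-194). *Gdf6* stood at 21.6 and 36.6 CPM against 1.41 and 2.40 (3.78 ± 0.26, adjusted p = 2.21e-44). In *Prg4*-positive cells 1 interzone gene was higher and 3 were lower, where 4.66% and 5.63% of all genes were called. The higher one was *Wnt16*, a ligand of the joint region, at 29.2 and 26.5 CPM against 10.9 and 9.43 (1.34 ± 0.28, adjusted p = 7.44e-05).

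Most cartilage genes were lower in every kind of positive cell at Day 7, with 8 to 10 of the 10 called lower in each of the 6 splits and 1 called higher in *Erg*-positive cells. Of all genes, 5.63% were called lower in *Prg4*-, 10.4% in *Creb5*-, 7.39% in *Erg*-, 14.4% in *Osr1*-, 6.40% in *Osr2*- and 5.83% in *Dpt*-positive cells. *Col2a1*, the main cartilage collagen, differed by -2.01 ± 0.06 in *Osr1*-positive and by -1.73 ± 0.07 in *Prg4*-positive cells. In *Erg*-positive cells it differed by -0.81 ± 0.04 at Day 7, but at Day 2 it was higher, at 1099 and 1032 CPM against 692 and 660 (0.57 ± 0.04, adjusted p = 2.1e-22). Beside *Col2a1*, *Acan* (0.70 ± 0.08) and *Matn4* (0.73 ± 0.05) were higher in *Erg*-positive cells of Day 2, and 7 of the 10 cartilage genes were called higher there.

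Other lists differed between *Prg4*-positive and *Osr1*-positive cells in their counts, a difference that was not itself tested. Of 4 contractile genes 3 were higher in *Prg4*-positive cells of Day 7, with *Cnn1* (calponin) at 185 and 206 CPM against 66.9 and 61.5 (1.48 ± 0.11), and 3 were lower in *Osr1*-positive cells. Of all genes, 4.66% were called higher in the first split and 14.4% lower in the second. Of 4 perichondrium genes 3 were higher in the first and 3 lower in the second. *Tnc*, the matrix glycoprotein tenascin C, was higher in *Prg4*-positive cells (0.62 ± 0.08) and lower in *Osr1*-positive cells (-1.34 ± 0.08). Genes that tissue dissociation is known to induce moved with the splits, 8 of 9 being higher in *Creb5*- and *Osr1*-positive cells of Day 7, 7 of 9 in *Osr2*- and *Dpt*-positive cells, 1 of 9 in *Erg*-positive cells and 5 of 9 lower in *Prg4*-positive cells, and their part in these results was not tested. At Day 10, 6 of 6 immune markers were higher in *Creb5*-positive cells, where 3.21% of all genes were called higher. They were lower in *Prg4*- and *Erg*-positive cells, a direction given here without a count of calls or the share of all genes called lower. In culture B *Prg4* UMIs did not separate immune cells from the rest. Without the marker-bearing cells the difference of *Osr1* in *Creb5*-positive cells of Day 10 was 1.38.

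**Figure D5:**
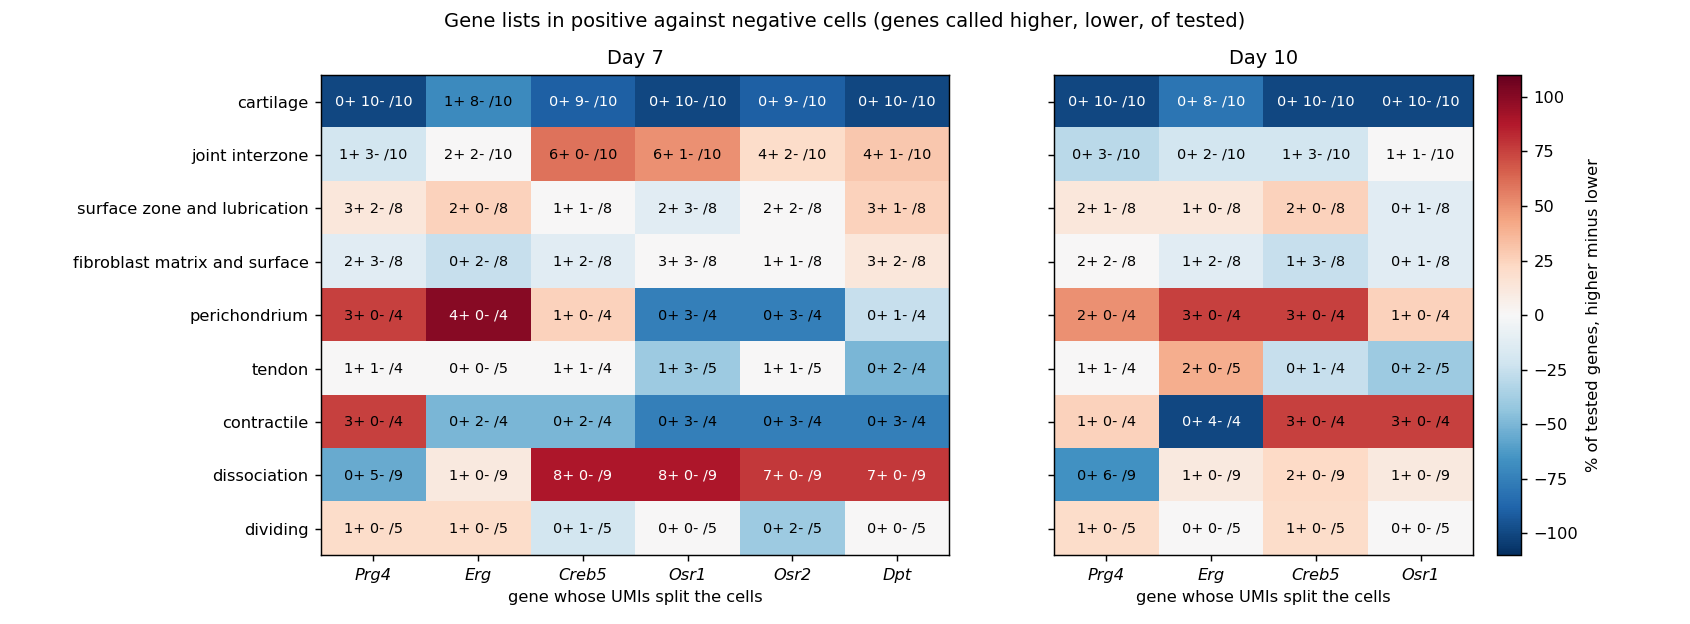
Number of genes of each list called higher (+) and lower (-) of those tested in positive against negative cells, by the gene that split the cells (horizontal axis), at Day 7 and Day 10, with color for the percentage higher minus lower. Of 10 cartilage genes, 8 to 10 are lower in each column drawn (*Osr2*-positive cells of Day 10, with 6 of 10 lower, are not drawn), and interzone genes are higher in the *Creb5* and *Osr1* columns of Day 7.

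The genes most like each member were named at the day with its highest level, by the largest log2 difference in positive cells over 2 libraries. For *Prg4* at Day 10 the 10 were *Mmp3* (3.26), *Thbs4* (2.42), *Krt19* (2.28), *Dhrs9* (2.18), *Serpinb1a* (2.02), *Gldn* (1.96), *Galnt13* (1.96), *Ly6a* (1.92), *Tmem173* (1.61) and *Frk* (1.60). *Mmp3* encodes stromelysin-1, an enzyme that degrades matrix. *Ly6a*, a surface antigen of stem and stromal cells, was at 190 and 268 CPM in *Prg4*-positive cells against 52.7 and 65.8. For *Osr1* at Day 7 they were *Gdf6* (3.78), *Btc* (3.64), *Nppc* (3.62), *Tspan15* (3.37) and *Grp* (3.33), while at Day 2, where its level was not called different from Day 7, they were *Aldh1a2* (1.67), *Wnt4* (1.54), *Fgf18* (1.14), *Epha7* (1.07) and *Gsc* (1.04). For *Dpt* at Day 7 they were *Pex5l* (4.08 ± 0.97), *Tmem229a* (3.80 ± 0.92), *Gdf6* (3.55 ± 0.47), *Mmp3* (3.51 ± 0.73) and *Ifitm1* (3.40 ± 0.47). Only 77 and 152 cells were *Dpt*-positive. In them *Pex5l* and *Tmem229a* stood at a mean of 21.7 CPM and *Mmp3* at 26.1 CPM, near the limit of 20 CPM.

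*Creb5*, *Osr2* and *Erg* were highest at Day 2. For *Creb5* the genes were *Aldh1a2* (2.15), which makes retinoic acid, *Irx1* (1.67), *Hoxd13* (1.34), *Hoxd12* (1.31) and *Wnt4* (1.21). For *Osr2* they were *Pthlh* (2.35), the parathyroid hormone-like ligand of the growth plate, *Clstn2* (1.79), *Hhip* (1.65), *Cmtm8* (1.56) and *Gdf5* (1.35). For *Erg* they were *Col14a1* (0.94), *Susd5* (0.88), *Sema3d* (0.85), *Sox6* (0.80), a partner of *Sox9* in cartilage, and *Bmpr1b* (0.78). *Mmp3* was thus named for *Prg4* at Day 10 and for *Dpt* at Day 7, the second from few cells and near the limit of 20 CPM.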

How the data were processed

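The deposited tables hold UMI counts per gene and barcode, which the authors made with Cell Ranger 6.1.2 (with STAR) against GRCm38/mm10, per the labels and the methods of the study. Seurat 4.1.0 is also named there. The count tables were used unnormalized. Cells were kept by the limits of the study for each library on UMIs (at least 800 or 1000), genes (200 to 7500) and mitochondrial and ribosomal shares, which left 72099 of 91215 barcodes. No doublet caller was run, and no clusters were made. The members and gene lists were chosen with earlier results of these data known.

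Counts were summed per library and tested with edgeR 4.0.16 (quasi-likelihood, TMM, default expression filter, Benjamini-Hochberg adjusted p under 0.05) in R 4.3.3, with DESeq2 1.42.0 as an alternative. SE is the log2 difference divided by the square root of F. For positive against negative cells, each cell was thinned to 3000 UMIs and at least 20 cells of each kind were required. Shares carry exact Clopper-Pearson 95% intervals, and the limit given for a count of 0 is 3 counts of the total. The scripts were tested on simulated counts. All 7 members were named. List genes were named by level at Day 10 or by size of change, and a few list genes outside that rule, such as *Gdf5*, were picked with values in view. The genes most like a member were the 10 (*Prg4*) or 5 largest log2 differences among called genes that were higher in each library and at 20 CPM or more in positive cells. Some alternatives were added after seeing the data, namely 6000 UMIs, no marker-bearing cells and leaving out libraries for the splits other than that of *Prg4*. The letters A and B were not used to pair the cultures in the main tests, as the labels do not say whether they are linked. Correlations of the A minus B differences between days were -0.09, -0.03 and 0.21 over 6929 genes.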

Additional observations from a re-analysis of the deposited data

Results flagged for a closer look

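The log2 difference between positive and negative cells was tested between days in the fit of each splitting gene (edgeR's quasi-likelihood test, Benjamini-Hochberg adjusted p over all genes), and 11 differences passed. They are not 11 separate results, since the 2 fits of a pair use the same cells and several pairs passed in both. These changes between days were not recomputed under the alternatives. From Day 2 to Day 7 the difference of *Osr1* in *Creb5*-positive cells grew by 1.75 (adjusted p = 2.52e-38), that of *Osr2* by 1.40 (adjusted p = 1.79e-07) and that of *Erg* by 0.51 (adjusted p = 0.0477). In *Osr1*-positive cells that of *Creb5* grew by 1.57 (adjusted p = 2.86e-33) and that of *Osr2* by 2.29 (adjusted p = 6.1e-20). In *Osr2*-positive cells that of *Creb5* grew by 1.14 (adjusted p = 2.41e-07) and that of *Osr1* by 1.74 (adjusted p = 1.65e-17), while that of *Prg4* changed by -3.34 (adjusted p = 0.018), from 4 and 3 UMIs at Day 2 and 2 and 3 at Day 7. In *Prg4*-positive cells that of *Erg* grew by 1.70 (adjusted p = 0.0158), on 4 and 5 *Erg* UMIs at Day 2. From Day 7 to Day 10 the difference of *Osr1* in *Creb5*-positive cells changed by -1.22 (adjusted p = 2.54e-06) and that of *Creb5* in *Osr1*-positive cells by -1.12 (adjusted p = 5.26e-05).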

How the results depend on the processing

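Of 828 recomputed log2 differences of the members, 727 kept their direction and side of the threshold, 26 lost the call, 32 gained it and 43 changed sign. Of the 43, 41 were called on neither side, and the other 2 were *Prg4* in *Erg*-positive cells of Day 10 without Day 10 replicate A (-0.77, adjusted p = 0.0279, edgeR, against 0.78 without replicate B) and *Erg* in *Osr2*-positive cells of Day 2 at 6000 UMIs (0.31, adjusted p = 0.0145, edgeR). Among the 41, at 6000 UMIs the values were 0.15 for *Creb5* in *Prg4*-positive cells of Day 7, 0.077 and 0.18 for *Prg4* in *Creb5*-positive cells of Day 7 and Day 10, -0.31 for *Osr1* in *Erg*-positive cells of Day 10, -0.18 for *Prg4* in *Osr1*-positive cells of Day 2 and -0.203 for *Erg* in *Osr1*-positive cells of Day 10. Without thinning *Creb5* was at 0.11 in *Prg4*-positive cells of Day 7 and *Dpt* at 0.22 in those of Day 10, where with 2 or more UMIs as positive *Dpt* was at 0.21 and *Erg* at -0.014. Without marker-bearing cells *Erg* was at -0.022 in *Creb5*-positive and *Osr2* at -0.055 in *Erg*-positive cells of Day 2. With library totals alone *Creb5* was at 0.022 in *Prg4*-positive cells of Day 7 and *Osr1* at -0.047 from Day 2 to Day 7, and with all barcodes *Cilp* was at 0.033 from Day 2 to Day 7. Leaving out a library gave, in *Prg4*-positive cells, -0.63 to 0.33 for *Creb5* at Day 7 and -6.42 to 0.21 for *Dpt* at Day 10. In *Creb5*-positive cells it gave -0.053 to 0.035 for *Erg* and -2.42 to 0.85 for *Dpt* at Day 2, -0.78 to 0.11 for *Prg4* at Day 7 and -6.36 to 2.06 for *Dpt* at Day 10. In *Erg*-positive cells it gave -0.68 to 0.29 for *Prg4*, -0.031 to 0.072 for *Creb5* and -0.33 to 0.23 for *Osr2* at Day 2, -1.24 to 0.21 for *Dpt* at Day 7 and -0.23 to 0.66 for *Osr1* at Day 10. In *Osr1*-positive cells it gave -0.043 to 0.73 for *Prg4* and -2.34 to 1.54 for *Dpt* at Day 2 and -0.12 to 0.25 for *Erg* at Day 10, and in *Osr2*-positive cells -0.24 to 0.18 for *Erg* at Day 2, and -6.36 to 3.86 for *Dpt* and -0.24 to 1.24 for *Osr1* at Day 10. The values of *Dpt* below -2 rest on a remaining culture with 0 *Dpt* UMIs in positive cells and are no bound. For the other sign changes the cause was not tested. The numbers of genes called between days were 13342 (Day 7 against Day 2), 9913 (Day 10 against Day 7) and 14670 (Day 10 against Day 2). With at least 10 CPM in 2 libraries, where fewer genes are tested, they were 7121, 5779 and 7502, and after thinning the second was 5767. Leaving out a library gave 11500 to 13226, 6788 to 10558 and 13543 to 14514. Scaling by library totals alone put the median log2 difference of all genes at -0.27 from Day 2 to Day 7 (0.014 with TMM), with 4647 higher and 9325 lower against 6772 and 6570, and at -0.26 from Day 2 to Day 10 (0.0013 with TMM), with 5474 and 9347 against 7414 and 7256. Counting only members called higher, those in *Prg4*-positive cells numbered 1 at Day 7 and 0 with 1000 UMIs, with 2 or more UMIs as positive and with DESeq2, and 0 to 1 when a library was left out. At Day 10 they numbered 0, and 2 at 6000 UMIs or without thinning. *Osr1* was called higher at Day 7 than at Day 2 with no filter (0.25), with all barcodes (0.34), after thinning (0.56) and without Day 7 replicate A (0.40). *Erg* was called lower at Day 10 than at Day 7 at 10 CPM (-0.15) and after thinning (-0.32). With the replicate block the counts were 13135, 9607 and 14524, and the labels do not say whether cultures of the same letter are linked.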
